A study of Oryza sativa with 12 samples.

Results

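Among 53,380 single annotated rice loci in the peduncle transcriptomes, 92 had RNA in Swarna at both stages and almost none in Pokkali. These 92 loci were chosen by the values themselves: 2 FPKM or more in both Swarna groups and below 0.1 FPKM in both Pokkali groups, with the row of the highest mean level taken for each locus. FPKM counts the fragments that map to a transcript for each kilobase of its length, relative to the fragments mapped in the library. The levels that selected the loci are therefore described without a test. The loci made up 92 of the 11,473 loci that reached 2 FPKM in both Swarna groups, or 8.02 per 1000.

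The peduncle is the uppermost internode of the rice stem and carries the panicle. It was taken from field-grown plants of the *indica* genotypes Swarna and Pokkali after heading, as non-elongating peduncles (NP), and before heading, as elongating peduncles (EP). The 4 groups were Swarna NP, Swarna EP, Pokkali NP and Pokkali EP, each with 3 libraries of total RNA from plants of 1 genotype and stage. The deposited table holds 1 FPKM per group with the 3 libraries combined, so no value has an error, an n of its own or a replicate check, and the number of reads behind each value is unknown.

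Rice genotypes are known to differ in the genes that their genomes carry as well as in how strongly shared genes are expressed, and runs of neighbouring genes can differ together. Reads here were placed on 1 reference genome, and a sequence that is missing from a genotype, or that differs too much from the reference to be aligned, gives no FPKM, just as a silent gene does. These cases cannot be told apart in RNA levels. A peduncle also holds several tissues, and fewer cells of a type and less RNA per cell cannot be told apart in whole-organ RNA. Loci are named by the identifiers of the Rice Genome Annotation Project, in which the 2 digits after "Os" are the chromosome. Positions refer to version 7 of its genome, are counted from 1, and give the stretch that the authors' assembly joined into 1 locus, which can hold more than 1 gene.

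Before the levels are given, 3 properties of the table bear on them. The secondary wall cellulose synthase genes *CESA4* and *CESA7*, which are active where walls thicken, had RNA in all 4 groups but at unlike levels. *CESA4* had 5.94 FPKM in Swarna NP and 54.9 FPKM in Swarna EP, against 138 FPKM in Pokkali NP and 264 FPKM in Pokkali EP. *CESA7* had 5.25 FPKM in Swarna NP and 68.1 FPKM in Swarna EP, against 49.8 FPKM in Pokkali NP and 170 FPKM in Pokkali EP. Both were thus lower in Swarna at each stage, and whether the tissues sampled were alike was not tested. An exact 0 is not always a low level: 3 loci with 10 FPKM or more in 3 groups were listed at 0 in the other one, with 1 such 0 in each of Swarna NP, Swarna EP and Pokkali NP and 0 of them in Pokkali EP. Swarna NP also held RNA, mostly at low levels, of loci that were otherwise found in Pokkali. There were 24 loci with 5 FPKM or more in both Pokkali groups and below 0.1 FPKM in Swarna EP. All 24 reached 0.1 FPKM in Swarna NP, at a median of 3.52% of the Pokkali NP level (quartiles 2.097% and 5.18%, range 1.08% to 42.6%). The top of that range was LOC_Os09g08910, with 899 FPKM in Swarna NP, against 2112 FPKM in Pokkali NP and 1850 FPKM in Pokkali EP. It was listed at 0 in Swarna EP and is the locus counted above for that group, so its place among the 24 rests on that 0.

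The reverse was rare in Pokkali NP. Of 39 loci with 5 FPKM or more in both Swarna groups and below 0.1 FPKM in Pokkali EP, 26 were listed at 0 in Pokkali NP, 1 reached 0.1 FPKM there, and the highest stood at 2.65% of its Swarna NP level. The cause of the low levels in Swarna NP was not tested. They bear on counts that ask Swarna NP to be near 0, and the 92 loci were asked to be near 0 in Pokkali only.

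**Figure D1:**
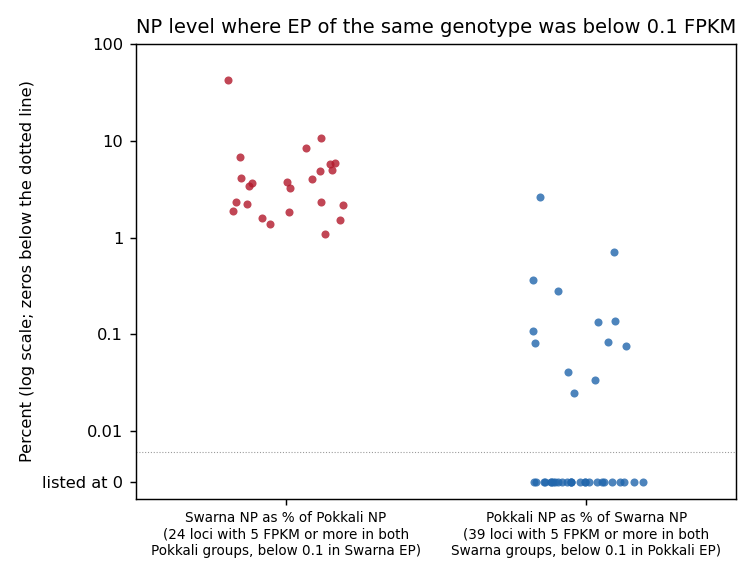
Percent on a log axis, 1 point per locus, with loci listed at 0 below the dotted line. Left, Swarna NP as a percent of Pokkali NP at 24 loci near 0 in Swarna EP, of which 22 lie between 1 and 10%; right, Pokkali NP as a percent of Swarna NP at 39 loci near 0 in Pokkali EP, of which 26 are at 0.

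The same rule with the genotypes exchanged found 15 loci, against the 92. At EP alone, where Swarna NP plays no part, 159 loci had 2 FPKM or more in Swarna and below 0.1 FPKM in Pokkali, and 82 had the exchanged pattern. At NP alone the counts were 239 and 86. With the upper limit in the other genotype moved to 1 FPKM at both stages, the counts were 140 and 109. At NP alone and a limit of 1 FPKM, the counts were 780 for Swarna and 1007 for the exchanged pattern, and at EP alone 446 and 279. So the excess of Swarna loci became smaller in proportion as the limit was loosened, and at NP alone it turned round. These limits were chosen after the data were seen.

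The 92 loci were mostly of low to moderate level. In Swarna NP they had 2.08 to 1201 FPKM with a median of 6.08, and in Swarna EP 2.003 to 60.2 FPKM with a median of 5.07. The medians over the 11,473 loci were 14.7 FPKM in Swarna NP and 11.1 FPKM in Swarna EP. By the mean of both Swarna groups, 38 loci lay between 2 and 5 FPKM, 29 between 5 and 10, 17 between 10 and 20, and 8 at 20 or above.

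In Pokkali, 53 of the 92 loci were listed at 0 in both groups, 21 in 1 group and 18 in neither. Of the 184 Pokkali values, 57 were above 0, with a median of 0.0167 FPKM and highest values of 0.0986 FPKM in NP and 0.0931 FPKM in EP. Summed over the loci, the levels were 2348 FPKM in Swarna NP and 723 FPKM in Swarna EP, against 0.667 FPKM in Pokkali NP and 0.910 FPKM in Pokkali EP. The 2 highest loci carried 63.1% of the sum in Swarna NP.

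**Figure D2:**
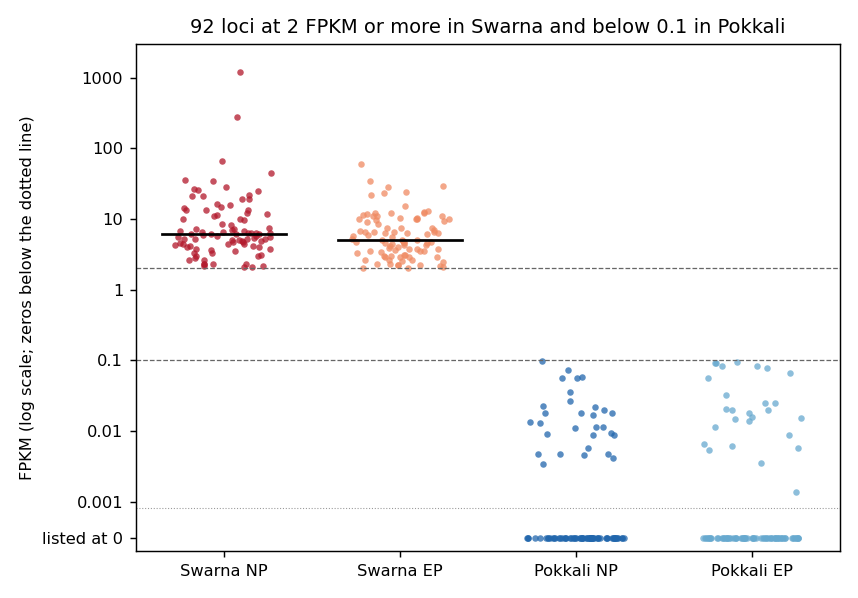
FPKM of the 92 loci on a log axis in Swarna NP, Swarna EP, Pokkali NP and Pokkali EP, 1 point per locus, with values listed at 0 below the dotted line. Bars are the Swarna medians (6.08 and 5.07 FPKM), dashed lines are the limits of 2 and 0.1 FPKM that chose the loci, and a single point exceeds 1000 FPKM.

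All 92 passed a 2-fold difference between the genotypes because of how they were chosen, and nothing is read from that. Over the 19,126 loci with 1 FPKM or more in at least 1 group, 20.4% were at least 2-fold higher in Swarna than in Pokkali at NP and 7.49% at EP, on log2 of FPKM plus 0.5.

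The locus with the highest level was LOC_Os06g38210 (chromosome 6, 22613771 to 22617448), with 1201 FPKM in Swarna NP and 60.2 FPKM in Swarna EP. It was listed at 0 in both Pokkali groups, so no fold is given between the genotypes. Within Swarna its NP level was 19.96 times its EP level. Next came LOC_Os06g02930 (chromosome 6, 1078047 to 1079053), with 279 FPKM in Swarna NP and 4.61 FPKM in Swarna EP, against 0 in Pokkali NP and 0.0136 FPKM in Pokkali EP. Its Swarna NP level was 60.6 times its EP level, the widest stage ratio of the 92. Both loci were thus far higher after heading, and LOC_Os06g38210 was also the highest of the 92 in Swarna EP.

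LOC_Os07g04500 (chromosome 7, 1985484 to 1987858) had 67.1 FPKM in Swarna NP and 23.2 FPKM in Swarna EP, against 0.0226 FPKM in Pokkali NP and 0 in Pokkali EP. LOC_Os07g04350 had 34.0 FPKM in Swarna NP and 10.1 FPKM in Swarna EP, and LOC_Os07g04330 had 24.5 FPKM in Swarna NP and 12.2 FPKM in Swarna EP. Both of these were listed at 0 in Pokkali at both stages. All 3 lie close together on chromosome 7 and were higher after heading.

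LOC_Os08g10760 and LOC_Os01g28989 stood apart from those in that their EP level was as high or higher. LOC_Os08g10760 (chromosome 8, 6325309 to 6327242) had 26.7 FPKM in Swarna NP and 29.0 FPKM in Swarna EP, and was listed at 0 in Pokkali. LOC_Os01g28989 (chromosome 1, 16232120 to 16234469) had 16.2 FPKM in Swarna NP and 34.7 FPKM in Swarna EP, against 0.0218 FPKM in Pokkali NP and 0.0199 FPKM in Pokkali EP. LOC_Os04g40190 (chromosome 4, 23915728 to 23917015) also had the higher level at EP, with 15.0 FPKM in Swarna NP and 24.1 FPKM in Swarna EP and 0 in both Pokkali groups.

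The remaining loci of high level had most of their RNA at NP. LOC_Os04g05650 (chromosome 4, 2889660 to 2891512) had 44.6 FPKM in Swarna NP and 2.86 FPKM in Swarna EP and was listed at 0 in Pokkali. LOC_Os07g02260 (chromosome 7, 726606 to 727559) had 35.6 FPKM in Swarna NP and 7.44 FPKM in Swarna EP, against 0 in Pokkali NP and 0.0245 FPKM in Pokkali EP.

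At the limits of the rule the loci ran on without a gap. The lowest Swarna values inside were 2.003 FPKM at LOC_Os06g38140 and 2.02 FPKM at LOC_Os01g45320, both in EP, and the nearest outside were 1.99 FPKM at LOC_Os03g57560 and 1.97 FPKM at LOC_Os11g33310. The highest Pokkali values inside were 0.0986 FPKM in NP and 0.0931 FPKM in EP, both at LOC_Os11g28770, with 0.0918 FPKM in EP next at LOC_Os01g45320. Just outside lay LOC_Os06g01560 with 0.105 FPKM and LOC_Os12g35790 with 0.121 FPKM, both in Pokkali EP.

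The stage ratio within Swarna was not fixed by the rule, although both Swarna values entered it as minimums. The median log2 ratio of NP over EP, on FPKM plus 0.5, was 0.22 for the 92 loci (quartiles −0.32 and 0.90), 0.03 over the 19,126 loci and 0.30 over the 11,473 loci. By direction alone, 55 loci were higher in NP and 37 in EP. On the values as deposited, the median of the 92 loci thus lay above that of the 19,126 loci and below that of the 11,473.

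At least a 2-fold difference between stages was found at 23 of the 92 loci and the other 69 lay within it. At 18 loci (19.6%) NP was higher, beside 26.6% of the 19,126 loci and 28.3% of the 11,473. At 5 loci (5.43%) EP was higher, beside 25.4% and 12.8%. With all 4 groups scaled to equal sums the split turned to 8 higher in NP and 27 higher in EP, since the FPKM sum over loci was 609,663 in Swarna NP and 330,514 in Swarna EP, so the balance between stages over the 92 loci depends on that scaling. Scaling by the median ratio gave 19 and 5, and quantile scaling gave 20 and 8. The shares of all loci under these scalings were not computed. Scaling also moved the other loci. The median log2 ratio was −0.58 for the 92 and −0.73 over the 19,126 loci with equal sums. It was 0.25 and 0.06 with the median ratio, and 0.38 and −0.10 with quantile scaling.

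**Figure D3:**
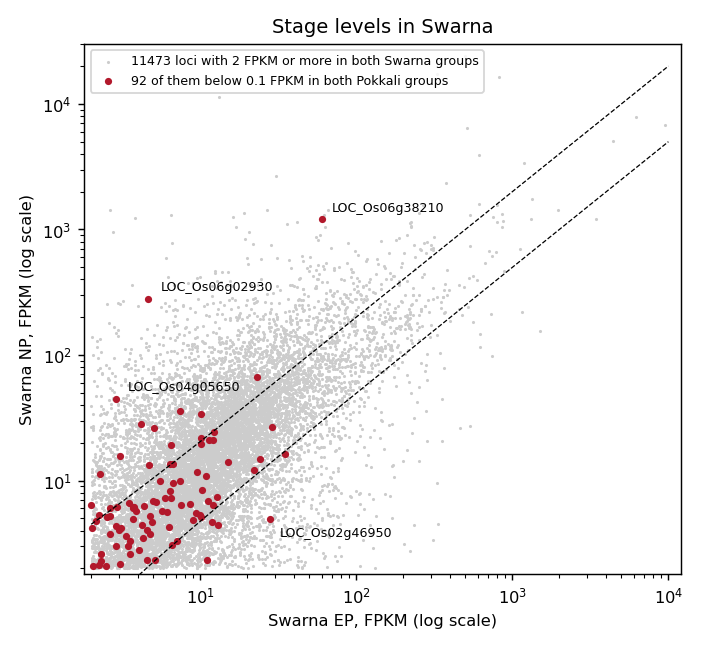
Swarna NP (vertical) against Swarna EP (horizontal), FPKM on log axes, for 11,473 loci with 2 FPKM or more in both (grey) and the 92 of them below 0.1 FPKM in both Pokkali groups (red). Dashed lines mark a 2-fold ratio of FPKM plus 0.5; 18 red points lie on or above the upper line and 5 on or below the lower line.

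The 5 widest ratios toward NP belonged to loci on 4 chromosomes. After LOC_Os06g02930 (log2 ratio 5.78), LOC_Os06g38210 (4.31) and LOC_Os04g05650 (3.75) came LOC_Os02g12490 (chromosome 2, 6528000 to 6533247), with 28.2 FPKM in Swarna NP and 4.17 FPKM in Swarna EP (2.62). LOC_Os01g11510 (chromosome 1, 6187517 to 6214386) followed, with 26.0 FPKM in Swarna NP and 5.04 FPKM in Swarna EP (2.26). Both were listed at 0 in Pokkali, although LOC_Os01g11520, in the span of LOC_Os01g11510, had 1.27 FPKM in Pokkali NP.

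The 5 widest ratios toward EP were smaller. LOC_Os02g46950 (chromosome 2, 28664472 to 28665551) had 4.98 FPKM in Swarna NP and 27.95 FPKM in Swarna EP (log2 ratio −2.38). LOC_Os11g41410 (chromosome 11, 24846942 to 24856270) had 2.34 FPKM in Swarna NP and 11.0 FPKM in Swarna EP (−2.02). These loci carried their RNA mainly in the elongating peduncle, as did LOC_Os12g35395 (4.44 FPKM in Swarna NP and 12.98 FPKM in Swarna EP, −1.45), LOC_Os12g35590 (4.64 FPKM in Swarna NP and 11.9 FPKM in Swarna EP, −1.27) and LOC_Os01g28989 (−1.08). The Pokkali values of these 5 loci ran from 0 to 0.0218 FPKM.

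Of the 92 loci, 2 were among the 815 locus identifiers read from the list of transcription factor genes that the study chose on these samples. As 815 identifiers stand beside 53,380 loci in all, nothing is read from that count. The copy of the list read here is shorter than the count given by the study, so further members of it were not analysed here. LOC_Os03g06860 (chromosome 3, 3471177 to 3473588) belongs to the FAR1 family, whose founding member acts in far-red light signaling through phytochrome A in *Arabidopsis*. It had 4.79 FPKM in Swarna NP and 2.13 FPKM in Swarna EP, against 0.0132 FPKM in Pokkali NP and 0.00889 FPKM in Pokkali EP. LOC_Os06g49880 (chromosome 6, 30196097 to 30197704) is listed under orphans, the class of regulators placed in no larger family. It had 11.3 FPKM in Swarna NP and 2.26 FPKM in Swarna EP, against 0.0357 FPKM in Pokkali NP and 0 in Pokkali EP.

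None of the 92 (0 of 92) was in the study's lists of genes that changed at heading in both genotypes, or in its lists of cell wall and other pathway genes. Membership in the lists of both genotypes needs a level in Pokkali, so the count of 0 in those follows from how the loci were chosen. The cell wall and pathway lists held only 11 to 134 loci each, and nothing is read from a count of 0 in them. The other 90 loci are known here by identifier alone. The identifiers ended in a digit other than 0 at 12 of the 92 loci (13.04%), beside 6.35% of the 11,473 loci. Such numbers were given to loci added between older ones.

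The rule read 1 row per locus, and 37 of the 92 loci had 50 further rows of their own, assembled apart. Of these rows, 28 rows of 22 loci reached 0.1 FPKM in Swarna, and 26 of the 28 (92.9%) were below 0.1 FPKM in both Pokkali groups. Among loci at 2 FPKM or more in both Swarna groups that were not chosen, 987 of 3301 such rows (29.9%) were below 0.1 FPKM in Pokkali. Rows of 1 locus come from the same libraries, so they are no replicates. The second row of LOC_Os06g40680 was the strongest, with 6.23 FPKM in Swarna NP and 1.36 FPKM in Swarna EP, and was listed at 0 in Pokkali. The 2 rows that did not follow belonged to LOC_Os11g28770, the locus at the Pokkali limit, with 0.324 and 0.204 FPKM in Pokkali EP. Among the rows below 0.1 FPKM in Swarna, 1 of LOC_Os05g43410 ran the other way, with 0 in Swarna NP and 0.0504 FPKM in Swarna EP, against 0.432 FPKM in Pokkali NP and 0 in Pokkali EP. With every row of a locus held below 0.1 FPKM in Pokkali, 90 of the 92 loci remained.

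For LOC_Os09g04508 the table held a value that goes against its place among the 92. Its own row had 5.13 FPKM in Swarna NP and 10.1 FPKM in Swarna EP and was listed at 0 in both Pokkali groups. A second row named for it together with LOC_Os09g04504 had 14.2 FPKM in Swarna NP and 20.2 FPKM in Swarna EP, against 3.93 FPKM in Pokkali NP and 6.21 FPKM in Pokkali EP. How much of that RNA came from LOC_Os09g04508 was not tested.

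Over the same bases, 26 of the 92 loci shared their assembled span with a row of another name, of several names or of none, and at 14 loci such a row had 1 FPKM or more in Pokkali. At these 14, Pokkali RNA was thus present within the span, in a row other than that of the locus itself. LOC_Os11g34790, LOC_Os11g34810 and LOC_Os11g34820 have the same span and are each counted among the 14. The shares over the 11,473 loci were not computed, so whether 26 or 14 is unusual was not tested. A span above 50 kb was found at 10 of the 92 loci (10.9%), beside 1.69% of the 11,473, and the widest was the 310,592 bp of LOC_Os02g05199. The median spans were close, at 4412.5 bp for the 92 loci and 4531 bp for the 11,473.

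Position, which the rule did not use, differed between the 92 loci and the rest. Chromosome 11 held 14 of them (15.2%), or 28.9 per 1000 of its loci at 2 FPKM or more in Swarna, while it held 4.22% of the 11,473. Chromosome 3 held 2 (2.17%), or 1.18 per 1000, while it held 14.8%. The other chromosomes held 4 to 10 each. As 3 of the 14 on chromosome 11 share 1 assembled span, the loci are not independent of each other.

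**Figure D4:**
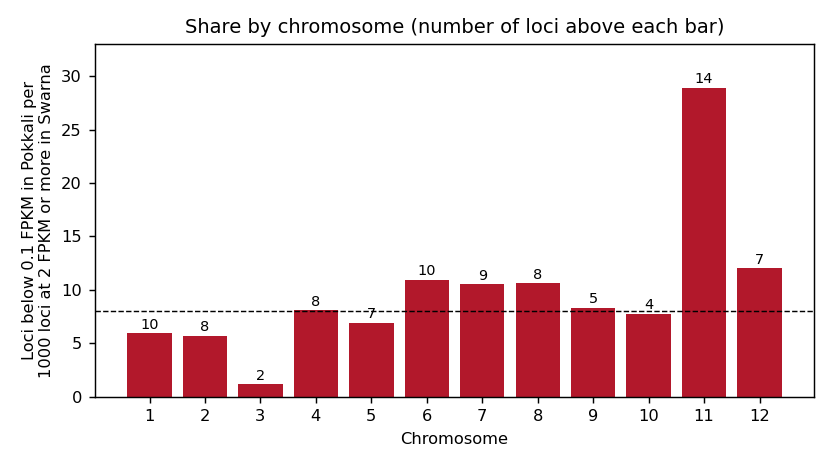
Number of the 92 loci per 1000 loci with 2 FPKM or more in both Swarna groups, for chromosomes 1 to 12, with the number of loci above each bar. The dashed line is the value over all chromosomes, 8.02, and chromosome 11 stands highest at 28.9 and chromosome 3 lowest at 1.18.

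The loci also lay close to each other. At 9 of the 92 (9.78%) the next locus on the chromosome was another of them, while 23 of the 11,381 other loci at 2 FPKM or more in Swarna (0.202%) had one of the 92 next to them. Within 50 kb of another were 21 of the 92, and 6 pairs were less than 10 kb apart. Apart from loci that share a span, the closest pair was LOC_Os07g02250 and LOC_Os07g02260 on chromosome 7, with 109 bp between their spans. Runs of 3 neighbouring loci occurred once, on chromosome 11.

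The loci beside them differed from the rest as well. Of 165 expressed loci that flank the 92 without being among them, 21 (12.7%) had 1 FPKM or more in a Swarna group and below 0.1 FPKM in both Pokkali groups, beside 427 of the 19,034 expressed loci outside the 92 (2.24%). The exchanged pattern was found at 1 of the 165 (0.606%), beside 0.651%. That pattern asks Swarna NP to be below 0.1 FPKM, so the low levels in Swarna NP given above bear on it. The counts of the opposite patterns are therefore not set against each other. At EP, 33 of the 165 (20%) were at least 2-fold higher in Swarna, beside 7.05% of those 19,034. At NP the count was 40 of the 165 (24.2%), near the 20.04% of those 19,034. Most flanking loci still had RNA in Pokkali, as 124 of the 165 (75.2%) reached 1 FPKM there, beside 90.8%.

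Counted outward from each of the 92 to the nearest locus with 0.5 FPKM or more in Pokkali, the loci fell into 82 stretches below that level, with a median of 9 and at most 68 loci each. At 53 loci no other locus of the stretch was expressed in Swarna, and 39 lay in a stretch with another one. Of the 82 stretches, 9 held at least 2 of the 92. At 4 of the 92 both direct neighbours had 0.5 FPKM or more in Pokkali, and the stretches of the others held further loci below that level in Pokkali. Stretches around other loci were not counted. Of the 53,380 loci, 19,126 reached 1 FPKM in at least 1 group, so loci of low level are common anywhere. Nothing is therefore read from the stretch counts about the 92.

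A run in which no locus reached 0.1 FPKM in Pokkali lay around LOC_Os06g38210 on chromosome 6. From LOC_Os06g38080 to LOC_Os06g38260 (116.5 kb), 19 loci were listed, of which 12 were above 0 in Swarna and 4 reached 1 FPKM there. The highest Pokkali value was 0.0244 FPKM and 17 loci were at 0 in both Pokkali groups. The remaining ones, LOC_Os06g38080 and LOC_Os06g38250, had a value in Pokkali and were at 0 in both Swarna groups. Besides the 1201 FPKM of LOC_Os06g38210, Swarna NP had 6.37 FPKM at LOC_Os06g38140, 5.05 FPKM at LOC_Os06g38190 and 4.92 FPKM at LOC_Os06g38110. In Swarna EP these loci had 60.2, 2.003, 0.0604 and 0 FPKM, in the same order. All 4 of these loci were thus higher after heading.

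Near LOC_Os06g02930, also on chromosome 6, neighbours without Pokkali RNA used different stages. LOC_Os06g02900, which ends 11.5 kb before it, had 0.551 FPKM in Swarna NP and 55.1 FPKM in Swarna EP and was listed at 0 in Pokkali, so it missed the rule on its NP level. LOC_Os06g02940 on the other side had 10.7 FPKM in Swarna NP and 0.0544 FPKM in Swarna EP and was also at 0 in Pokkali. LOC_Os06g02960 had 17.5 FPKM in Swarna NP and 0.0198 FPKM in Swarna EP, against 0.492 FPKM in Pokkali NP and 0.217 FPKM in Pokkali EP. A further one of the 92, LOC_Os06g03030, had 2.27 FPKM in Swarna NP and 2.31 FPKM in Swarna EP and lay 33.5 kb on. Between it and LOC_Os06g02930, Pokkali RNA was found at LOC_Os06g02980. That locus had 0.738 FPKM in Swarna NP and 1.58 FPKM in Swarna EP, against 4.26 FPKM in Pokkali NP and 1.26 FPKM in Pokkali EP.

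On chromosome 7, the 3 loci LOC_Os07g04330, LOC_Os07g04350 and LOC_Os07g04500 were interleaved with loci of both genotypes. LOC_Os07g04310, just before them, had 60.3 FPKM in Swarna NP and 47.8 FPKM in Swarna EP, against 4.09 FPKM in Pokkali NP and 2.85 FPKM in Pokkali EP. LOC_Os07g04450, between the second and the third, ran the other way, with 13.8 FPKM in Swarna NP and 9.29 FPKM in Swarna EP, against 34.2 FPKM in Pokkali NP and 24.9 FPKM in Pokkali EP. Pokkali RNA was therefore found within the region at a locus of its own.

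On chromosome 12, LOC_Os12g35395, LOC_Os12g35480 and LOC_Os12g35590 lay within 117.4 kb. LOC_Os12g35480 (21574131 to 21576743) had 6.84 FPKM in Swarna NP and 4.96 FPKM in Swarna EP and 0 in Pokkali. It lay 1262 bp from the end of LOC_Os12g35470, 1 of the 15 loci of the exchanged pattern, which had 0.0780 FPKM in Swarna NP and 0.0535 FPKM in Swarna EP, against 5.66 FPKM in Pokkali NP and 3.02 FPKM in Pokkali EP. Neighbours with opposite patterns thus stood side by side there.

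**Figure D5:**
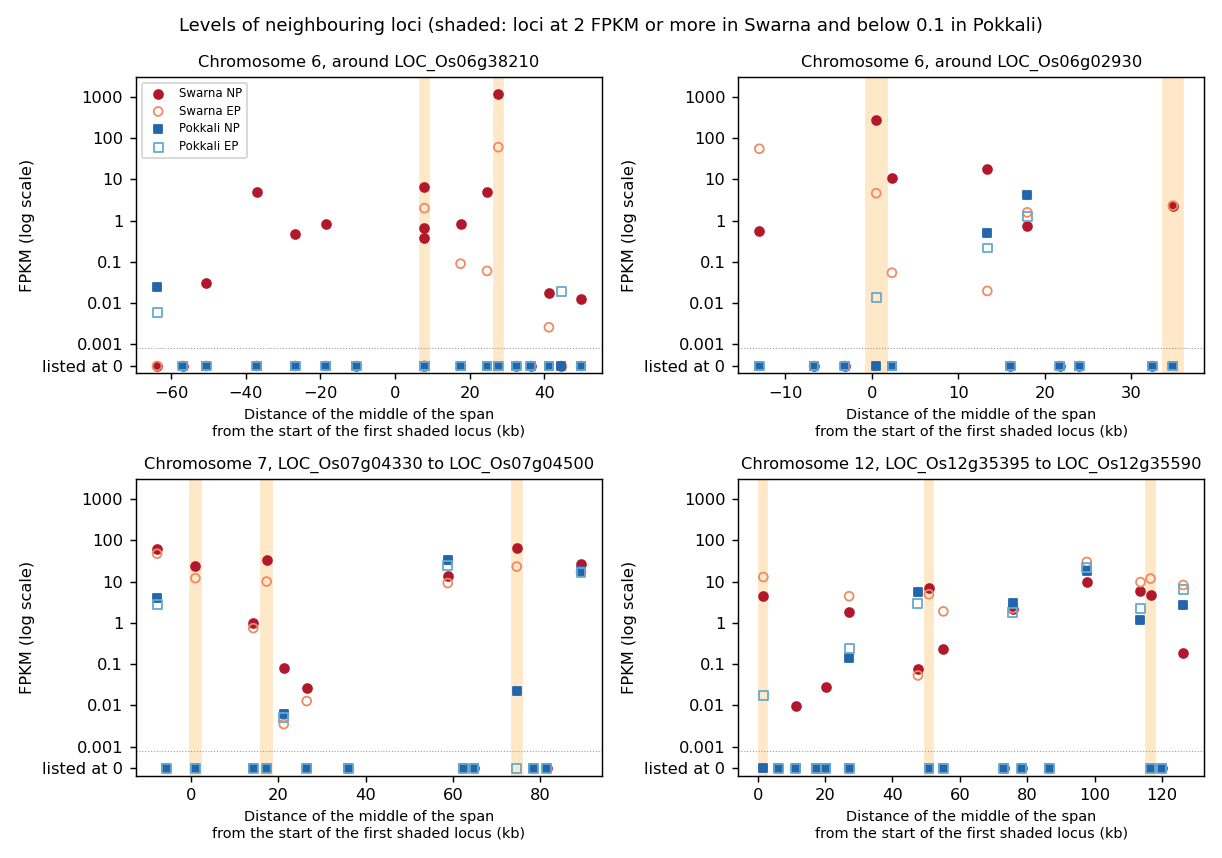
FPKM on log axes of neighbouring loci in 4 regions, placed by distance in kb, with values listed at 0 below the dotted line, where later symbols cover earlier ones. Circles are Swarna and squares Pokkali, filled for NP and open for EP, and shading marks the loci of the 92. Around LOC_Os06g38210 no Pokkali value exceeds 0.0244 FPKM, while in each of the other regions loci with Pokkali RNA lie between the shaded ones.

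The run on chromosome 11 held LOC_Os11g34790, LOC_Os11g34810 and LOC_Os11g34820, for all of which the table gives the span 20359916 to 20424116. They had 9.89, 3.29 and 7.30 FPKM in Swarna NP and 5.48, 7.06 and 6.46 FPKM in Swarna EP, and all were listed at 0 in Pokkali. LOC_Os11g34750, in the same span, had 0.330 FPKM in Swarna NP and 2.33 FPKM in Swarna EP, against 1.26 FPKM in Pokkali NP and 1.16 FPKM in Pokkali EP. The next locus, LOC_Os11g34860, had like levels in the genotypes, with 12.3 FPKM in Swarna NP and 11.4 FPKM in Swarna EP, against 12.2 FPKM in Pokkali NP and 15.7 FPKM in Pokkali EP.

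Close pairs did not always share a stage pattern. LOC_Os04g40180 (6.92 FPKM in Swarna NP and 11.1 FPKM in Swarna EP) and LOC_Os04g40190, 422 bp apart on chromosome 4, were both higher at EP. LOC_Os07g02250, with 4.87 FPKM in Swarna NP and 9.004 FPKM in Swarna EP, was higher at EP, and its neighbour LOC_Os07g02260 at NP. LOC_Os02g26790 and LOC_Os02g26800 on chromosome 2 were level, with 5.76 and 4.67 FPKM in Swarna NP and 5.67 and 4.91 FPKM in Swarna EP. In these pairs no Pokkali value exceeded 0.0245 FPKM. On chromosome 8, LOC_Os08g10740 had 3.48 FPKM in Swarna NP and 4.27 FPKM in Swarna EP, against 0.0731 FPKM in Pokkali NP and 0.0553 FPKM in Pokkali EP, and lay 773 bp from LOC_Os08g10760.

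Wide assembled spans on chromosomes 8 and 11 held further loci of the same kind. LOC_Os08g08570 had 6.48 FPKM in Swarna NP and 8.56 FPKM in Swarna EP, and LOC_Os08g08680, 22.3 kb on, had 15.8 FPKM in Swarna NP and 3.04 FPKM in Swarna EP. Both were listed at 0 in Pokkali, as was LOC_Os08g08650 in the span of LOC_Os08g08570, with 6.57 FPKM in Swarna NP and 0.697 FPKM in Swarna EP. That locus missed the rule on its EP level alone. LOC_Os11g45790, in a span of 109,559 bp, had 6.61 FPKM in Swarna NP and 3.46 FPKM in Swarna EP, against 0.00464 FPKM in Pokkali NP and 0 in Pokkali EP. Neighbours in that span had either stage pattern: LOC_Os11g45809 had 0.672 FPKM in Swarna NP and 4.02 FPKM in Swarna EP, and LOC_Os11g45864 had 4.23 FPKM in Swarna NP and 0.947 FPKM in Swarna EP. Both of these were listed at 0 in Pokkali. The span was not free of Pokkali RNA. A row named for LOC_Os11g45750, LOC_Os11g45920 and LOC_Os11g45924 had 2.49 FPKM in Swarna NP and 5.10 FPKM in Swarna EP. In Pokkali it had 1.19 FPKM in NP and 0.929 FPKM in EP. A row without a name had 0.584 FPKM in Pokkali NP and 0.585 FPKM in Pokkali EP, against 0.996 FPKM in Swarna NP and 1.54 FPKM in Swarna EP.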

How the data were processed

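Total RNA libraries of Swarna and Pokkali peduncles, 3 for each genotype and stage, were sequenced by the authors. Reads were aligned with HISAT2 (version 2.1.0) to the Rice Genome Annotation Project version 7 genome, assembled with StringTie (version 1.3.3b), merged, and compared with Cuffdiff. The deposited values are FPKM as the authors made them, 1 per assembled row and group, so the read counts behind each value are unknown and no test was run. The depth of each library, which the study tabulates, was not used here.

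Of 73,781 rows, 62,442 named a single locus. For each of the 53,380 loci the row of highest mean was kept. Stage ratios were taken on log2 of FPKM plus 0.5, which understates the change of low loci, and 2-fold was counted as a difference. No fold is given against a value of 0. Per-library tests, omission of single libraries and replicate blocks, considered for tables with values per library, were not run.

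The loci and lists were chosen with earlier results of these data known. Loci were named by level (10 highest Swarna means), stage ratio (5 in each direction), the study's lists, runs of 3 neighbours, and closeness to the limits. Further loci, in the regions around them and as examples, were chosen after their values were seen. Calculations used Python 3.11.15, numpy 2.4.6 and pandas 2.3.3, with plots by matplotlib 3.10.9. They were checked on a copy of the deposited values in which 200 loci had been set to levels that meet the rule. Gene descriptions and sequences were not used here.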

Additional observations from a re-analysis of the deposited data

Results flagged for a closer look

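Outside the rows that chose the 92 loci, 17 further rows lay over their spans and had a like pattern. They had 1 FPKM or more in a Swarna group and below 0.1 FPKM in both Pokkali groups. These 17 rows were picked for that pattern, and some were counted above among the further rows of a locus or the flanking loci. Other rows over the spans had RNA in both genotypes, and at 14 of the 92 loci such a row reached 1 FPKM in Pokkali. An example is LOC_Os01g25880 in the span of LOC_Os01g25920, with 10.8 FPKM in Swarna NP and 20.2 FPKM in Pokkali NP. The share of rows with the picked pattern was not computed. The value given for each of the 17 is the larger of its 2 Swarna levels.

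Rows of the same locus reached 6.23 FPKM at LOC_Os06g40680, 1.47 FPKM at LOC_Os12g36790 and 1.03 FPKM at LOC_Os01g74660. Rows of another locus were LOC_Os08g08650 with 6.57 FPKM in the span of LOC_Os08g08570, LOC_Os10g04370 with 1.59 FPKM in the span of LOC_Os10g04170, and 4 in the 109,559 bp span of LOC_Os11g45790: LOC_Os11g45864 with 4.23 FPKM, LOC_Os11g45809 with 4.02 FPKM, LOC_Os11g45800 with 1.85 FPKM and LOC_Os11g45820 with 1.24 FPKM.

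Rows named for several loci were LOC_Os11g30130 with LOC_Os11g30140, at 2.44 FPKM in the span of LOC_Os11g30150, and LOC_Os06g38160 with LOC_Os06g38170, at 2.13 FPKM in the span of LOC_Os06g38140. Rows without a name had 3.81, 2.03 and 1.53 FPKM in the span of LOC_Os11g34790, 2.44 FPKM in that of LOC_Os11g30150, 1.72 FPKM in that of LOC_Os08g08680 and 1.14 FPKM in that of LOC_Os11g45790. Chromosome 11 held 10 of the 17 rows. All 10 lay in the spans of LOC_Os11g30150, LOC_Os11g34790 and LOC_Os11g45790, of 24,574, 64,201 and 109,559 bp. Nothing is read from that count about the chromosome.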

How the results depend on the processing

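The number of loci moved with the limits: 145 at a Swarna minimum of 1 FPKM, 38 at 5 FPKM, 14 at 10 FPKM, 53 with Pokkali at 0, and, chosen after the data were seen, 159 at EP alone and 239 at NP alone. It was 83 to 107 under the other alternatives run. The median stage log2 ratio was −0.58 with equal sums, a scaling that moved the median of all loci by −0.77, and 0.38 with quantile scaling, which moved it by −0.14. Loci 2-fold higher in NP numbered 8 of the 92 with equal sums and 8 of the remaining 38 at a minimum of 5 FPKM. Those higher in EP numbered 27 with equal sums, 8 with quantile scaling, 8 with 0.1 added and 1 of the 38 at the minimum of 5 FPKM. The shares of all loci under these settings were not computed. Within 50 kb of another were 21 loci, beside 9 with another next to them. Of 24 named loci, LOC_Os07g04500, LOC_Os07g04350, LOC_Os06g38140 and LOC_Os03g06860 lost the 2-fold call in NP under at least 1 setting (lowest log2 ratio 0.25), and 3 that lay within 2-fold changed sign with equal sums: LOC_Os11g34790 (−0.03), LOC_Os11g34820 (−0.66) and LOC_Os11g28770 (−0.40). No paired analysis was possible because the table holds 1 value per group; for the same reason no library could be left out, and depth limits the lowest values by an unknown amount.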
